A study of Homo sapiens with 12 samples.

Results

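The Wnt signalling genes WNT5A, WNT5B, DKK1, DKK3, SFRP1, FZD2, FZD7 and AXIN2 were described across siRNA treatments of WI-38 cells. WI-38 is a line of human embryonic lung fibroblasts. The genes were found by symbol, and all 8 of 8 had a row among the 13937 genes of the deposited table. Cells were transfected by Lipofectamine RNAi-MAX with small interfering RNAs (siRNAs), and messenger RNA was sequenced from its 3' end in 12 libraries, 2 for each of 6 groups. The control group received the control siRNA siAS alone. The YT group received siAS with siRNAs against YAP and TAZ, the transcriptional coactivators of the Hippo pathway. The cGAS and STING groups received siAS with siRNAs against cGAS, a sensor of cytosolic DNA, or STING, its downstream adaptor. The cGAS_YT and STING_YT groups received those siRNAs with the YAP and TAZ siRNAs and no siAS. All groups share the same cell line, and the labels do not say whether the libraries of a group came from separate cultures. P-values therefore measure only the spread between these libraries, which may be technical.

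Wnt proteins are secreted lipid-modified ligands that bind Frizzled receptors. In the canonical branch, Wnt binding to Frizzled and an LRP coreceptor halts the breakdown of beta-catenin, which then works with TCF and LEF factors in the nucleus, and AXIN2 is a feedback target of this branch. WNT5A and WNT5B are best known as ligands of the beta-catenin-independent branch, which signals through Frizzled with ROR and other coreceptors to cell polarity and movement. DKK1 blocks the LRP coreceptors and SFRP1 binds Wnt ligands outside the cell, while DKK3 is a related secreted protein without a settled role in Wnt signalling. In the lung, fibroblasts are a source of Wnt ligands and of their antagonists.

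The libraries held 17790774 to 20650727 reads. Values are CPM, that is reads relative to library size, scaled between libraries by the authors, and 3' end counting makes levels comparable between genes without a length correction. YAP1 stood at 109 CPM in control and 14.6 CPM in YT cells, and WWTR1, which encodes TAZ, at 139 and 19.8 CPM. YAP1 was at 93.3 and 23.1 CPM in cGAS and cGAS_YT cells, and at 88.4 and 14.3 CPM in STING and STING_YT cells. WWTR1 was at 95.6 and 18.3 CPM in cGAS and cGAS_YT cells, and at 100.5 and 12.1 CPM in STING and STING_YT cells. Among the groups with YAP and TAZ siRNAs, YAP1 was thus highest in cGAS_YT and WWTR1 in YT. The part of these differences in the changes below was not tested. The cGAS gene, listed as MB21D1, went from 7.87 to 1.85 CPM with its siRNA, and the STING gene, listed as TMEM173, from 24.1 to 1.78 CPM. All 10 fibroblast markers were in the table, against KRT19 alone of 6 epithelial markers and TEK alone of 5 endothelial markers. Of 5 immune markers 2 were present, CD68 at 3.53 CPM and CD14 at 0.741 CPM in control. Of 4 smooth muscle markers 3 were present, ACTA2 at 1834 CPM, CNN1 at 205 CPM and MYH11 at 2.31 CPM in control. The 2 YT libraries, replicates 3 and 4, were the least alike of any group (r = 0.987 across genes, against 0.993 or more in the others). Values that rest on 1 of them are given below. With a library left out, its group has 1 library and no measured spread, so adjusted p-values from such fits do not measure the spread of that group. Changes are log2 differences ± SE on the scale log2(CPM + 1), with 2 libraries per group. They come from 1 limma fit of 13894 genes with Benjamini-Hochberg adjusted p-values and a threshold of 0.05, and this scale understates the change of weakly expressed genes.

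WNT5A was lowered by STING siRNAs, both against control and against YT, while cGAS siRNAs gave no called change against control and a called change of -0.36 against YT. It was the only one of the 8 genes with a called rise in YT against control cells. It lies on the minus strand of chromosome 3 at 55465715 to 55490539 (GRCh38). Control libraries had 375 and 348 CPM of WNT5A and STING libraries 188 and 172 CPM, which left 49.8% of control. The cGAS libraries, with 376 and 359.6 CPM, overlapped control. With the YAP and TAZ siRNAs added, it was at 502 and 411 CPM in YT, 358 and 348 CPM in cGAS_YT and 120.0 and 116 CPM in STING_YT libraries. The 4 libraries with STING siRNAs thus lay below the other 8. STING siRNAs lowered WNT5A against control (-1.0 ± 0.09, adjusted p = 2.6e-06) and by more among cells with YAP and TAZ siRNAs (-1.93 ± 0.09, adjusted p = 4.19e-10). The difference between these changes was itself past the threshold (-0.93 ± 0.13, adjusted p = 0.000269). Equally, the YAP and TAZ siRNAs went with higher WNT5A in cells without STING siRNAs (0.33 ± 0.09, adjusted p = 0.00889) and lower WNT5A in cells with STING siRNAs (-0.60 ± 0.09, adjusted p = 7.5e-05). The rise in YT cells was not past the threshold without control replicate 2 (0.28, adjusted p = 0.0804), without YT replicate 3 (0.19, adjusted p = 0.0767) or in a fit of those groups alone (adjusted p = 0.0836). In cGAS_YT cells WNT5A was lower than in YT cells (-0.36 ± 0.09, adjusted p = 0.0049; -0.22 without YT replicate 3, and adjusted p = 0.061 in a fit of those groups alone). The cGAS and STING siRNAs differed directly in WNT5A, which was 2.04-fold higher in cGAS than in STING cells (1.03 ± 0.09, adjusted p = 4.81e-07).

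The 3' untranslated region of WNT5A, 4377 bases long in GENCODE release 29, holds the heptamer GTCATAT at 2 places, and it was not found in that of the other 7 genes, each searched in 1 transcript. This heptamer is shown because genes that carry it had been found lower after STING siRNAs in earlier results of these same libraries, so it is no independent evidence here. Both sites are given 5' to 3' on the transcript strand with the heptamer in capitals, the first at GRCh38 chr3:55469495-55469519 and the second at chr3:55469424-55469448, both minus strand.
WNT5A site at base 582: gacaagaatGTCATATtctcaagga
WNT5A site at base 653: agacagaccGTCATATtctaatagc
The sites start at bases 582 and 653 of the region. Of 9604 genes with an annotated region of at least 50 bases and a mean of 5 CPM or more, 9.80% hold the heptamer and 1.27% hold it 2 or more times. These shares and the medians that follow take no account of the length of the region. In WNT5A it was the longest of the 8 genes. The median log2 change of STING against control was 0.015 over genes without a site, -0.075 over genes with 1 site and -0.16 over the 122 genes with 2 or more. WNT5A, at -1.0, lay below the median of each of these classes. In STING_YT against YT the medians were 0.00031, -0.10 and -0.23. A heptamer associated in the same way with cGAS siRNAs, GCATTCA, was not found in the 3' untranslated region searched, 1 transcript per gene, of any of the 8. A match describes letters only, and its part in the fall of WNT5A was not tested.

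WNT5B fell with the YAP and TAZ siRNAs in each of the 3 backgrounds. It lies on the plus strand of chromosome 12 at 1529891 to 1647243. WNT5B stood at 124 and 135 CPM in control and 82.3 and 59.1 CPM in YT libraries, at 84.6 and 92.8 CPM in cGAS and 55.7 and 49.0 CPM in cGAS_YT libraries, and at 151 and 142 CPM in STING and 69.8 and 61.4 CPM in STING_YT libraries. In no background did the libraries with YAP and TAZ siRNAs overlap those without. The changes were -0.88 ± 0.13 in YT against control (adjusted p = 3.74e-05), -0.75 ± 0.13 in cGAS_YT against cGAS (adjusted p = 0.000326) and -1.15 ± 0.13 in STING_YT against STING (adjusted p = 2.4e-06). Neither interaction passed the threshold (0.13 ± 0.18 and -0.27 ± 0.18), and their 95% intervals ran from -0.25 to 0.51 with cGAS and from -0.65 to 0.11 with STING. Without YT replicate 4 the interaction with STING passed (-0.50, adjusted p = 0.02), and without YT replicate 3 it was -0.03. WNT5B was also lower with cGAS siRNAs than in control (-0.54 ± 0.13, adjusted p = 0.00481), which was lost without control replicate 2 (adjusted p = 0.0572) or cGAS replicate 7 (adjusted p = 0.0647). Against YT, cGAS_YT was at -0.41 ± 0.13 (adjusted p = 0.0165; -0.17, adjusted p = 0.194, without YT replicate 3, and -0.32, adjusted p = 0.134, without cGAS_YT replicate 10). That call was also lost with a constant prior (adjusted p = 0.0642) and in a fit of those groups alone (0.0955). STING siRNAs alone left WNT5B at 113% of control (0.18 ± 0.13, not past the threshold). Against YT, STING_YT was at -0.09 ± 0.13 and did not pass, though it did without YT replicate 4 (-0.32, adjusted p = 0.0217), and it was 0.15 without YT replicate 3. In order of level, STING_YT and YT overlapped, while cGAS_YT lay below them and cGAS, control and STING lay above in that order without overlap.

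DKK1, the LRP-blocking antagonist, showed the largest range of the 8 genes relative to its level: it was low with the YAP and TAZ siRNAs and high with cGAS or STING siRNAs. It lies on the plus strand of chromosome 10 at 52314296 to 52318042. DKK1 stood at 9.39 and 10.9 CPM in control libraries and at 1.80 and 1.13 CPM in YT libraries, or 14.4% of control. It was at 26.1 and 33.5 CPM in cGAS and 21.4 and 19.6 CPM in STING libraries, above both control libraries in each case. With both kinds of siRNA it was at 13.9 and 10.1 CPM in cGAS_YT, overlapping control, and at 1.94 and 1.93 CPM in STING_YT libraries. Cells with YAP and TAZ siRNAs thus had DKK1 near 2 CPM or less unless they also had cGAS siRNAs. The YAP and TAZ siRNAs changed DKK1 by -2.19 ± 0.20 against control (adjusted p = 2.13e-07), -1.25 ± 0.20 in cGAS cells (adjusted p = 0.00018) and -2.87 ± 0.20 in STING cells (adjusted p = 1.09e-08). The rise was 1.46 ± 0.20 with cGAS siRNAs (adjusted p = 4.54e-05) and 0.95 ± 0.20 with STING siRNAs (adjusted p = 0.00388; 0.0506 without STING replicate 13). Among cells with YAP and TAZ siRNAs, cGAS siRNAs went with 8.20-fold more DKK1 (2.40 ± 0.20, adjusted p = 7.7e-08), whereas STING siRNAs gave 0.27 ± 0.20, not past the threshold. The interaction with cGAS passed (0.94 ± 0.28, adjusted p = 0.0343) but was lost in 8 of 17 alternatives, among them a pseudocount of 4 (0.29, adjusted p = 0.394), a constant prior (adjusted p = 0.0501) and 5 of the left-out libraries. At these low levels the pseudocount sets much of the size: the change in YT against control ranged from -2.79 with edgeR on the recovered reads to -1.37 with a pseudocount of 4, and cGAS_YT against YT from 3.04 to 1.54.

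The RefSeq promoter window of DKK1, 250 bases before to 50 after the start (GRCh38.p14 chr10:52314031-52314330, plus strand), is shown because DKK1 fell with the YAP and TAZ siRNAs in every background and is a known beta-catenin target. YAP and TAZ act on DNA through TEAD factors, and beta-catenin through TCF and LEF factors.
DKK1 promoter: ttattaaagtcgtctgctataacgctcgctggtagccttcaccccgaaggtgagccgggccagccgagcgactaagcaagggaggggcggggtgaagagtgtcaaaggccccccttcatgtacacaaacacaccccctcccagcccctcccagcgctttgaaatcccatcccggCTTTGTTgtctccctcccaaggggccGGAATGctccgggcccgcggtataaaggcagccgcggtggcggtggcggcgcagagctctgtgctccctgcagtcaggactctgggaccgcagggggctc
The capitals mark the TEAD word GGAATG, 50 bases before the start, and the TCF and LEF word CTTTGTT, 76 bases before it. Both strands were searched for GGAATG, for CTTTGAT or CTTTGTT, and for the AP-1 word TGANTCA, and the words do not overlap in this window. Of 35116 windows of this length, 14% hold the TEAD word, 7.61% a TCF and LEF word and 7.71% the AP-1 word. Windows were matched for 3 of the 8 genes, and the 2 windows each of WNT5A and WNT5B hold none of these words. A match is a description of the letters and not a shown binding site.

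DKK3 was the most even of the 8 genes across the treatments. It lies on the minus strand of chromosome 11 at 11963106 to 12009769. DKK3 stood at 809 and 864 CPM in control, 729.7 and 639 CPM in YT, 754 and 726 CPM in cGAS, 761 and 789 CPM in cGAS_YT, 795 and 803 CPM in STING and 790.0 and 796 CPM in STING_YT libraries. All group means lay between 81.8% and 100% of control. In the limma fit described above, its one called change was in YT against control (-0.29 ± 0.08, adjusted p = 0.0102). That call was lost without control replicate 2 (adjusted p = 0.0788), without YT replicate 4 (-0.20, adjusted p = 0.0653) and in a fit of those groups alone (adjusted p = 0.118). With cGAS or STING siRNAs present, the effect of the YAP and TAZ siRNAs was 0.07 ± 0.08 and -0.01 ± 0.08, with 95% intervals from -0.11 to 0.24 and from -0.19 to 0.17. Neither interaction passed (0.36 ± 0.12, adjusted p = 0.0554, with cGAS and 0.28 ± 0.12, adjusted p = 0.173, with STING), though without YT replicate 3 both did (adjusted p = 0.00321 and 0.0155). Against YT, DKK3 was at 0.18 ± 0.08 in cGAS_YT (adjusted p = 0.0944; 0.00889 without YT replicate 3) and at 0.22 ± 0.08 in STING_YT cells (adjusted p = 0.0557). The latter passed with a filter of 5 CPM (adjusted p = 0.0466), with DESeq2 (0.0494) and without YT replicate 3 (0.00465).

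SFRP1, which binds Wnt ligands outside the cell, was lowered by the YAP and TAZ siRNAs in every background and raised by STING siRNAs. It lies on the minus strand of chromosome 8 at 41261958 to 41309497. SFRP1 stood at 761 and 776 CPM in control and 308 and 303 CPM in YT libraries, or 39.7% of control. The cGAS libraries, with 772 and 780.4 CPM, overlapped control, and the STING libraries had 1639 and 1508 CPM, a 2.05-fold rise. The doubly treated libraries lay between YT and control, at 572 and 572 CPM in cGAS_YT and 714 and 741 CPM in STING_YT. The changes with YAP and TAZ siRNAs were -1.33 ± 0.08 against control (adjusted p = 1.14e-09), -0.44 ± 0.08 in cGAS cells (adjusted p = 0.000421) and -1.11 ± 0.08 in STING cells (adjusted p = 1.08e-08). The fall was smaller with cGAS siRNAs than without them (interaction 0.89 ± 0.11, adjusted p = 3.16e-05), and for STING the interaction did not pass (0.22 ± 0.11, 95% interval -0.01 to 0.45). STING siRNAs raised SFRP1 by 1.03 ± 0.08 against control (adjusted p = 2.87e-07) and by 1.25 ± 0.08 against YT (adjusted p = 4.83e-09). cGAS siRNAs left it at 0.01 ± 0.08 against control, with a 95% interval from -0.15 to 0.18, but raised it by 0.91 ± 0.08 among cells with YAP and TAZ siRNAs (adjusted p = 1.01e-07). No call for SFRP1 changed under any of the alternatives tried. The same 2 STING libraries in which WNT5A, a ligand, was at 49.8% of control thus had SFRP1, an antagonist, at 205% of control.

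**Figure D1:**
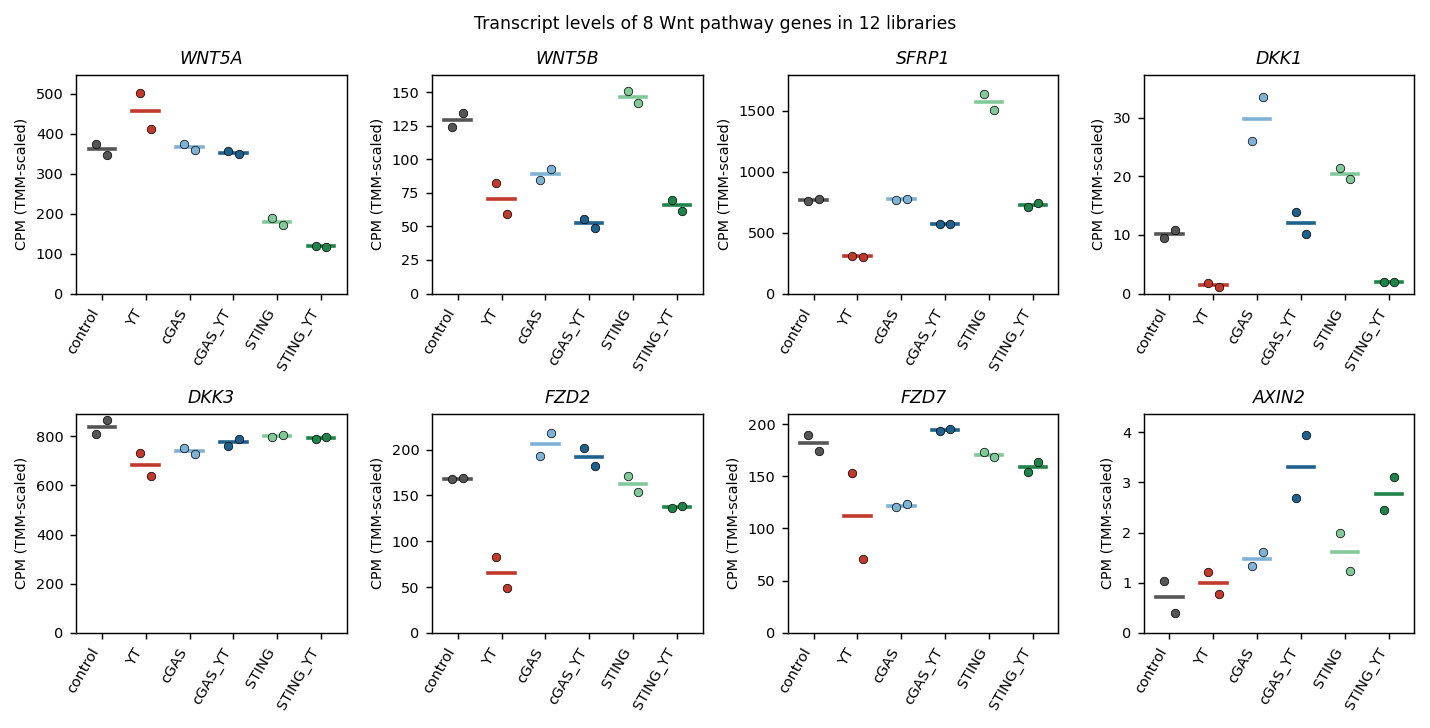
CPM (vertical axis, linear from 0) of each of the 8 genes in the 6 groups (horizontal axis); each point is 1 library and each bar the mean of 2. WNT5A is lowest in the 2 groups with STING siRNAs, SFRP1 and FZD2 are lowest in YT, and the 2 YT points lie far apart for FZD7.

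The Frizzled receptor genes FZD2 and FZD7 fell in YT against control, and neither had a called fall in cGAS_YT against cGAS or STING_YT against STING in the fit of all libraries. Both had a wide spread between the YT libraries. FZD2 lies on the plus strand of chromosome 17 at 44557459 to 44559570, and FZD7 on the plus strand of chromosome 2 at 202034587 to 202038445. FZD2 stood at 168 and 169 CPM in control and at 83.0 and 48.6 CPM in YT libraries, or 39.1% of control. It was at 193 and 219 CPM in cGAS, 201 and 182 CPM in cGAS_YT, 171 and 153 CPM in STING and 137 and 139 CPM in STING_YT libraries. Both YT libraries lay below the other 10, and cGAS_YT overlapped cGAS. FZD2 changed by -1.39 ± 0.16 in YT against control (adjusted p = 3.45e-06), against -0.10 ± 0.16 in cGAS cells and -0.23 ± 0.16 in STING cells, neither past the threshold, though the latter passed in a fit of those groups alone (adjusted p = 0.00444). The interactions were 1.29 ± 0.23 with cGAS (adjusted p = 0.000994) and 1.16 ± 0.23 with STING (adjusted p = 0.00392, but 0.0528 with a constant prior). Relative to YT cells, FZD2 was 2.91-fold higher in cGAS_YT (1.58 ± 0.16, adjusted p = 8.45e-07) and 2.09-fold higher in STING_YT cells (1.1 ± 0.16, adjusted p = 5.77e-05; 0.72 without YT replicate 4). Without YT replicate 3 the fall in YT was -1.77, and without replicate 4 it was -1.01.

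FZD7 stood at 189.6 and 175 CPM in control libraries and at 153 and 70.4 CPM in YT libraries, which differed from each other by more than any other pair for this gene. It was at 120.2 and 123 CPM in cGAS, 193 and 195 CPM in cGAS_YT, 173 and 168 CPM in STING and 154 and 164 CPM in STING_YT libraries. The YT, cGAS, STING and STING_YT libraries thus all lay below both control libraries for FZD7, yet the cGAS_YT libraries lay above the 10 others. STING against control was at -0.09 ± 0.21 and did not pass the threshold. The change was -0.80 ± 0.21 in YT against control (adjusted p = 0.00567), but -1.36 without YT replicate 3, -0.25 without replicate 4, and adjusted p = 0.0546 with DESeq2 on the recovered reads. cGAS siRNAs gave -0.58 ± 0.21 (adjusted p = 0.0537), which became adjusted p = 6.63e-07 in a fit of those groups alone. In cGAS cells the YAP and TAZ siRNAs gave a rise of 0.67 ± 0.21 (adjusted p = 0.0249), a call lost in 6 of 13 alternatives (adjusted p up to 0.116) although the size stayed between 0.65 and 0.69. The interaction with cGAS was 1.47 ± 0.30 (adjusted p = 0.00304; 2.03 without YT replicate 3 and 0.92 without replicate 4). cGAS_YT exceeded YT by 0.90 ± 0.21 (adjusted p = 0.00269; 0.34 without YT replicate 4 and 1.45 without replicate 3). STING_YT exceeded YT by 0.61 ± 0.21 (adjusted p = 0.033), a call that was lost in 7 of 13 alternatives and was 0.06 without YT replicate 4 and 1.17 without replicate 3. With STING, the interaction was 0.70 ± 0.30 and not past the threshold. It was 1.26 without YT replicate 3 and 0.15 without YT replicate 4, fits in which the spread between YT libraries is not measured.

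AXIN2, the scaffold protein gene that canonical Wnt signalling induces as a brake on itself, was weakly expressed, with 7 to 76 reads per library. It lies on the minus strand of chromosome 17 at 65528563 to 65561647. AXIN2 stood at 1.04 and 0.398 CPM in control, 1.22 and 0.772 CPM in YT, 1.33 and 1.62 CPM in cGAS, 2.69 and 3.94 CPM in cGAS_YT, 2.0 and 1.23 CPM in STING and 2.44 and 3.10 CPM in STING_YT libraries. A count of 3 reads is worth 0.142 to 0.170 CPM in these libraries. All 4 doubly treated libraries lay above the other 8. AXIN2 was higher in cGAS_YT than in YT cells (1.11 ± 0.26, adjusted p = 0.00256) and higher in STING_YT than in YT cells (0.92 ± 0.26, adjusted p = 0.0107). The second call was lost without YT replicate 4 (adjusted p = 0.0671) or STING_YT replicate 16 (adjusted p = 0.0907). The change in cGAS_YT against cGAS (0.79 ± 0.26, adjusted p = 0.0305) was lost in 6 of 12 alternatives, among them edgeR (1.16, adjusted p = 0.0602) and DESeq2 (1.15, adjusted p = 0.0686) on the recovered reads. For cGAS_YT against YT the size ranged from 0.55 with a pseudocount of 4 to 1.73 with edgeR, and for STING_YT against YT from 0.44 to 1.48. YT, cGAS and STING against control gave 0.23 ± 0.26, 0.55 ± 0.26 and 0.62 ± 0.26, none past the threshold.

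Counted over the 8 genes, the YAP and TAZ siRNAs lowered 6 and raised 1 against control, where 20.9% of all genes tested were lower and 20.6% higher. The median change was -0.84 over the 8 genes and 0.0031 over all genes. The 8 genes were chosen with earlier results of these data known, so the counts and medians given here are no independent evidence of a shift of Wnt genes. In cGAS cells the same siRNAs lowered 3 and raised 2 of the 8, beside 12.7% and 15% of all genes, and in STING cells they lowered 4 while the other 4 did not pass, beside 19.8% of all genes lower and 19.1% higher. WNT5B, DKK1 and SFRP1 were the 3 genes lowered in all 3 backgrounds. The interaction with cGAS was positive for 4 of the 8 (DKK1, SFRP1, FZD2 and FZD7) and did not pass for the other 4, where 7.50% of all genes passed with a positive and 5.93% with a negative value. Of those other 4, WNT5A was at -0.39 ± 0.13 (adjusted p = 0.0609) and passed with median-of-ratios scaling (adjusted p = 0.0429), with DESeq2 (0.0278) and without YT replicate 4 (0.0015). DKK3 was at 0.36 ± 0.12 (adjusted p = 0.0554) and passed with a filter of 5 CPM (adjusted p = 0.0459), with DESeq2 (0.0484) and without YT replicate 3 (0.00321). With STING it was positive for FZD2 and negative for WNT5A, beside 3.35% and 4.53% of all genes. The cell state differed alongside: the summed level of 6 cell cycle genes was 460.3 to 475 CPM in control and 76.3 to 77.9 CPM in YT libraries, 221 to 234 and 54.0 to 63.3 CPM in cGAS and cGAS_YT, and 537 to 550.0 and 81.7 to 85.3 CPM in STING and STING_YT. Marker levels of fibroblasts and of other cell types differed too. The summed level of 10 fibroblast markers was 35233.5 to 36236 CPM in control, 28555.7 to 30328 in YT and 25296 to 26357.3 in cGAS libraries. It was 24765.1 to 28140.6 CPM in cGAS_YT, 32819.2 to 32965 in STING and 36626.9 to 39546.8 in STING_YT libraries. The summed level of 3 of 4 smooth muscle markers was 1946 to 2138 CPM in control, 872 to 1026 in YT and 1943 to 1984 in cGAS libraries. It was 2363 to 2485 CPM in cGAS_YT, 956 to 965 in STING and 1120.1 to 1279.6 in STING_YT libraries. This sum was mostly ACTA2. From STING to STING_YT, mean ACTA2 went from 818 to 1087 CPM and MYH11 from 1.76 to 3.07 CPM, but CNN1 from 141 to 109 CPM. KRT19 was at 9.39 to 10.7 CPM in control and 2.83 to 3.17 CPM in YT libraries, and TEK at 68.7 to 71.7 and 108 to 115 CPM. The part of these differences in the changes of the 8 genes was not tested. In bulk RNA, fewer cells expressing a gene and less of its RNA per cell cannot be told apart.

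**Figure D2:**
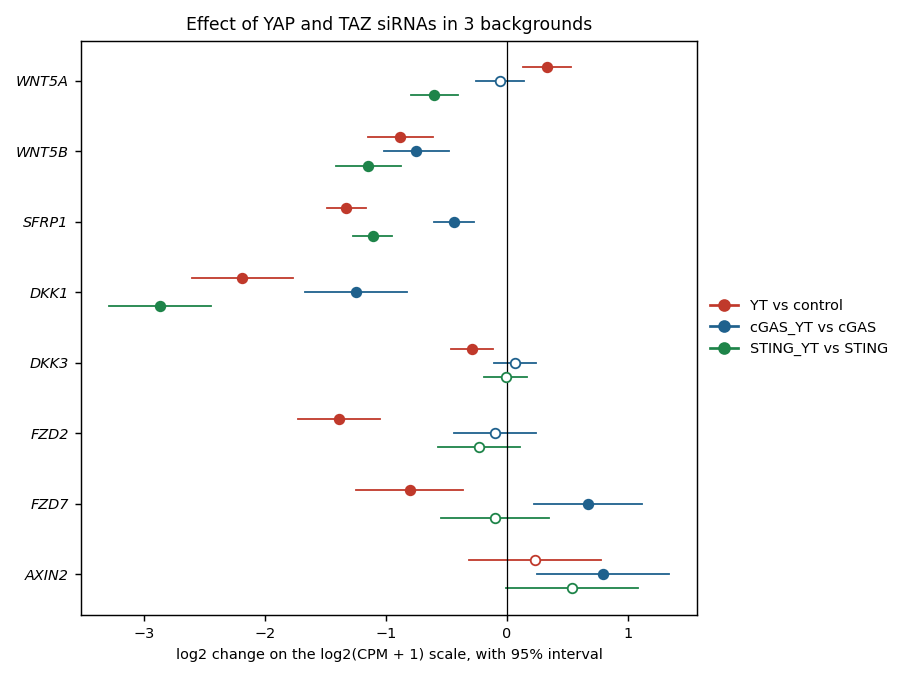
Log2 change (horizontal axis) of the 8 genes with YAP and TAZ siRNAs in control, cGAS and STING backgrounds; points are estimates, lines 95% intervals, and filled points passed the threshold. WNT5B, SFRP1 and DKK1 lie left of 0 in all 3 backgrounds, while the FZD2 points lie at -1.39, -0.10 and -0.23 in the control, cGAS and STING backgrounds.

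Against control, cGAS siRNAs raised 1 of the 8 genes (DKK1) and lowered 1 (WNT5B), beside 11.1% of all genes higher and 14.3% lower. STING siRNAs raised DKK1 and SFRP1 and lowered WNT5A, beside 6.14% and 8.86%. These comparisons and YT against control share the 2 control libraries. Among cells with YAP and TAZ siRNAs, 5 genes were higher and 2 lower in cGAS_YT than in YT cells, beside 20.5% and 20.2% of all genes. In STING_YT cells 4 were higher and 1 lower than in YT, beside 16% and 18.0%, and both comparisons share the 2 YT libraries. SFRP1, FZD2, FZD7 and AXIN2 were higher in both, and WNT5A was lower in both. The cGAS and STING groups differed directly in WNT5A, which was higher in cGAS, and in WNT5B and SFRP1, which were lower in cGAS (-0.72 ± 0.13, adjusted p = 0.00038, and -1.02 ± 0.08, adjusted p = 7.38e-08). DKK1 was at 0.51 ± 0.20 in cGAS against STING and did not pass (adjusted p = 0.0572), but it did in 5 of 13 alternatives, among them edgeR (adjusted p = 0.0323) and DESeq2 (0.0291). That is 1 of 8 higher and 2 lower by limma, beside 16% and 17.6% of all genes. The summed level of 8 interferon-stimulated genes was 226 to 237 CPM in control and 325 to 419 CPM in YT libraries. It was 4957 to 5359 CPM in cGAS and 3558 to 6596 CPM in cGAS_YT libraries. In STING libraries it was 526 to 869.9 CPM and in STING_YT libraries 960.3 to 1089 CPM. Of this sum, IFI6 alone made 386 and 630 CPM in STING and 711 and 752 CPM in STING_YT libraries. The part of these genes in the changes above was not tested.

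**Figure D3:**
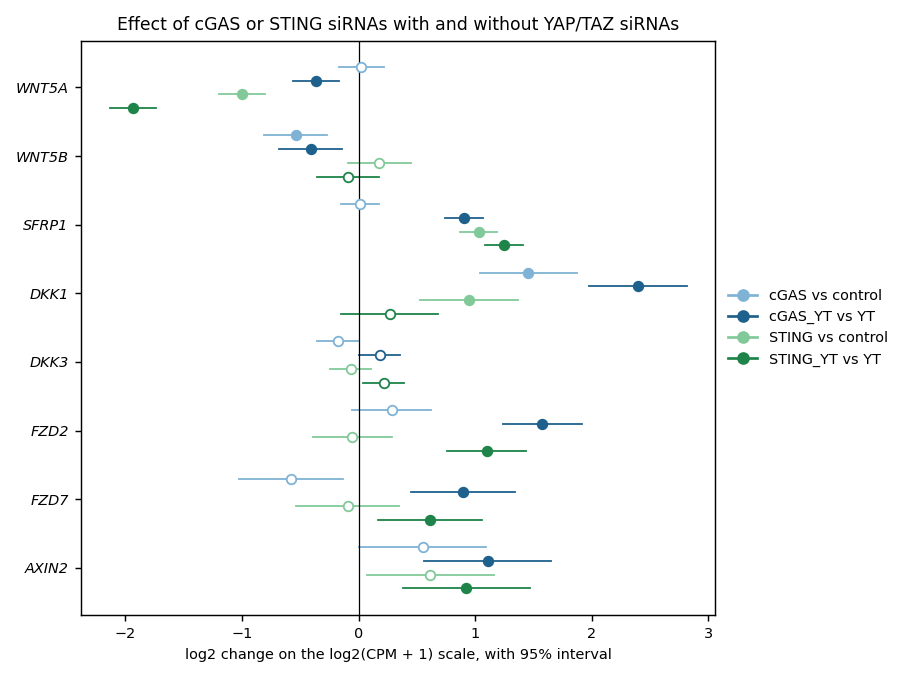
Log2 change (horizontal axis) of the 8 genes with cGAS or STING siRNAs, against control and, among cells with YAP and TAZ siRNAs, against YT; points are estimates, lines 95% intervals, and filled points passed the threshold. WNT5A lies far left in the 2 STING comparisons, at -1.0 and -1.93, and SFRP1 has a filled point right of 0 in 3 of 4 comparisons.

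The wider Wnt pathway was followed over a list of 104 genes by role, of which 72 were in the table and all 72 were tested. With the YAP and TAZ siRNAs 21 of these rose and 18 fell against control, beside 20.6% and 20.9% of all genes, and the median was 0.10 beside -0.84 for the 8 genes. Both lists were chosen with earlier results of these data known. The counts by role in YT against control that follow have the same shares of all genes beside them. Of 6 genes listed as antagonists 5 were lower and 1 higher, and these include DKK3, whose role is not settled. Besides the 3 described above, DKK2 and APCDD1 fell (-1.09 and -0.82, both under 2 CPM in control) and FRZB rose (0.79, from 0.621 to 1.80 CPM), 3 genes named after their values were seen. Of 15 receptor genes 6 rose and 5 fell. KREMEN1, a DKK coreceptor, rose by 1.5 ± 0.22 and ROR1, a WNT5A receptor, by 0.81 ± 0.16. In STING_YT against STING the related receptor ROR2 rose by 1.32 ± 0.20 and PTK7, a receptor of the polarity branch, by 0.70 ± 0.08. Mean ROR2 also went from 5.96 CPM in control to 10.4 CPM in YT, and from 4.61 CPM in cGAS to 11.1 CPM in cGAS_YT cells. Mean PTK7 went from 202 to 240 CPM and from 230 to 330 CPM in the same comparisons. WLS, the carrier of Wnt ligands to the cell surface, rose in all 3 backgrounds, by 0.90 ± 0.09 against control (236 to 441 CPM), 0.59 ± 0.09 in cGAS and 0.74 ± 0.09 in STING cells.

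Among 7 measured ligands WNT5A rose and WNT5B and WNT2 fell in YT against control. WNT2, a canonical ligand of lung mesenchyme, fell from 14.8 to 6.16 CPM (-1.15 ± 0.20, adjusted p = 0.000211), but rose from 9.34 to 24.3 CPM in cGAS_YT against cGAS (1.26 ± 0.20, adjusted p = 0.000174). Its interaction with cGAS, 2.41 ± 0.28 (adjusted p = 2.18e-05), stood beside 1.47 at most among the 8 genes. WNT16 was higher with STING siRNAs alone (0.91 ± 0.25) and lower with cGAS siRNAs (-1.03 ± 0.25). In the nucleus the beta-catenin partners LEF1 and TCF7 rose with the YAP and TAZ siRNAs in each background: LEF1 by 0.88 ± 0.13, 1.11 ± 0.13 and 1.27 ± 0.13, and TCF7 by 1.26 ± 0.20, 0.91 ± 0.20 and 1.38 ± 0.20, in control, cGAS and STING cells. With cGAS siRNAs alone both were lower than in control, LEF1 at -1.05 ± 0.13 and TCF7 at -0.96 ± 0.20. Of 9 common beta-catenin targets 4 rose and 3 fell in YT against control. LEF1 and TCF7 are among these 9, and CCND1, which encodes cyclin D1, fell (-0.53 ± 0.09), so the direction was mixed.

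In the cytoplasmic core 3 of 17 genes were higher in YT against control and the other 14 did not pass. CSNK1E, a casein kinase of the pathway, rose by 0.86 ± 0.08 there, and its interactions were negative with both cGAS and STING (-0.81 ± 0.11 each). CTNNB1, which encodes beta-catenin, was at -0.06 in the same comparison and did not pass. In the planar polarity group 2 of 9 rose and 2 fell: PRICKLE1 fell (-1.55 ± 0.15) and its interaction with cGAS was 1.66 ± 0.21, while DAAM1, a formin of this branch, rose by 0.88 ± 0.13. The R-spondin axis genes LGR4, RSPO2 and ZNRF3 were at 0.03, 0.01 and 0.06 in YT against control and did not pass. Of these 3 genes, 2 were higher in cGAS_YT against YT, beside 20.5% of all genes. In STING_YT against YT 1 was higher and 1 lower, beside 16% and 18.0%. In cGAS_YT against cGAS 1 was higher, beside 15%, and in cGAS against STING 1 was higher, beside 16%. The interaction with cGAS was positive for 1, beside 7.50%. In comparisons other than YT against control, the wider list counted 10 of 72 higher and 10 lower in cGAS against control (11.1% and 14.3% of all genes). In STING against control it counted 6 and 10 (6.14% and 8.86%). With the YAP and TAZ siRNAs it counted 23 higher and 7 lower in cGAS_YT against cGAS (15% and 12.7%) and 21 and 14 in STING_YT against STING (19.1% and 19.8%). Against YT it counted 28 and 20 in cGAS_YT (20.5% and 20.2%) and 17 and 16 in STING_YT (16% and 18.0%).

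**Figure D4:**
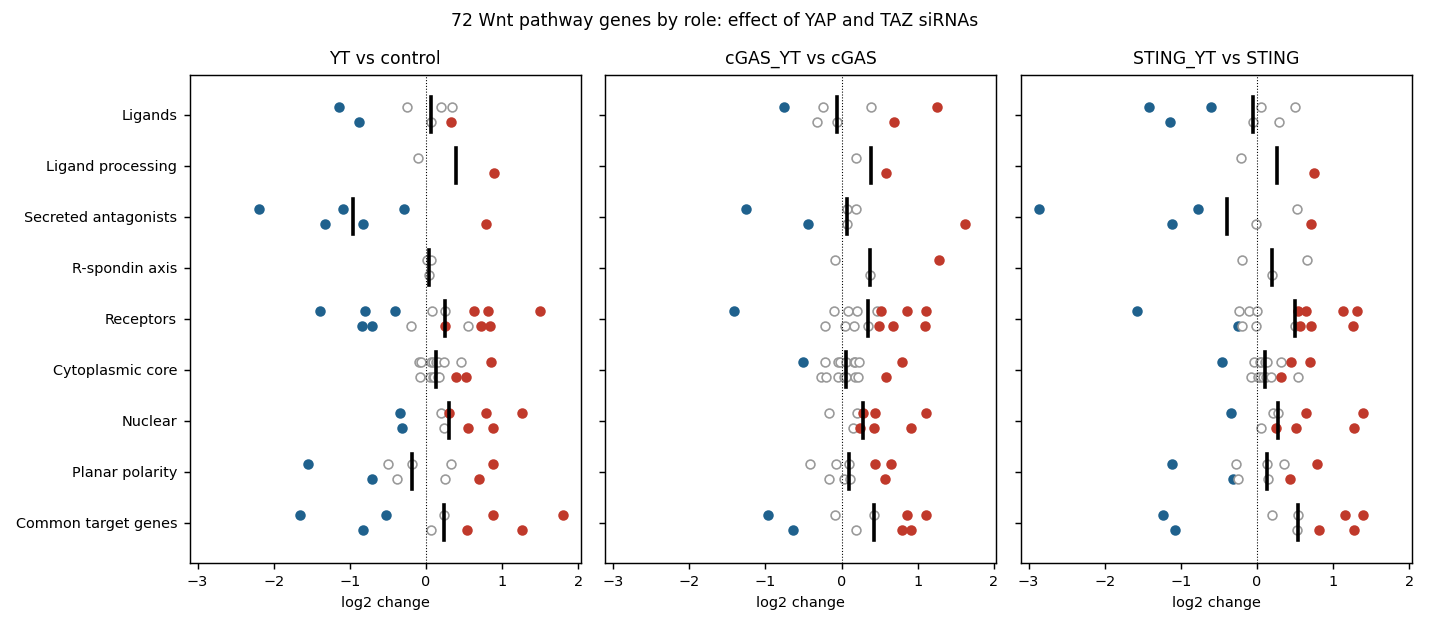
Log2 change (horizontal axis) of 72 Wnt pathway genes with YAP and TAZ siRNAs in 3 backgrounds, by role (rows; a gene with 2 roles is drawn in both). Filled red points are higher and filled blue points lower past the threshold, open points did not pass, and black bars are medians. In YT against control, 5 of 6 genes in the row labelled secreted antagonists lie left of 0, and FRZB lies right of it.

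In control cells the 8 genes ran from DKK3 at 836 ± 38.9 CPM (SD, n = 2) and SFRP1 at 769 ± 10.6 CPM, through WNT5A at 361, FZD7 at 182, FZD2 at 168 and WNT5B at 129 CPM, to DKK1 at 10.2 and AXIN2 at 0.718 ± 0.453 CPM. DKK3 and SFRP1 thus had the highest levels of the 8 in control cells. In the order of groups by level, YT was lowest for DKK1, DKK3, SFRP1, FZD2 and FZD7, STING_YT for WNT5A, cGAS_YT for WNT5B and control for AXIN2. Libraries of neighbouring groups overlapped for cGAS_YT, control and cGAS in WNT5A, and for STING_YT and YT in WNT5B. They overlapped for control and cGAS_YT in DKK1, and for control and cGAS in SFRP1. They also overlapped for STING and control, and for cGAS_YT and cGAS, in FZD2, for YT and cGAS in FZD7 and DKK3, and for STING_YT and STING in DKK3. In AXIN2 the overlaps were control with YT, cGAS with STING, and STING_YT with cGAS_YT.

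The 8 genes did not follow a single pattern among themselves. Over the 12 libraries the Pearson r of log2(CPM + 1) ran from -0.59 between WNT5B and AXIN2 to 0.84 between DKK3 and FZD7, a description in which all pairs share libraries and scaling. Each gene had closer companions elsewhere among the 10245 genes that averaged 5 CPM or more. WNT5A was most like HSP90B1, an endoplasmic reticulum chaperone gene (r = 0.989), WNT5B like TFDP1, a partner of the E2F cell cycle factors (r = 0.991), and DKK1 like BLOC1S2 (0.989), KRTAP1-5 (0.989) and IGFBP3, an IGF-binding protein gene (0.984). SFRP1 was most like GDF5, a growth factor of the bone morphogenetic protein family (r = 0.985), FZD2 like SYNC (0.976), FZD7 like SLBP, the histone stem-loop binding protein gene (0.959), DKK3 like ACTB (0.943) and AXIN2 like SVBP (0.939). These rest on 6 group patterns rather than 12 independent conditions. Of the 3 genes most like WNT5A, HSP90B1 and BECN1 hold no GTCATAT in the 3' untranslated region searched, and TTC13 holds it at 1 place.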

How the data were processed

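The QuantSeq 3' mRNA-Seq kit was used, per the labels' protocols. STAR 2.5.3a, featureCounts, edgeR and hg38 stand in the submitters' processing notes, and what settings, strand option or gene models they ran with is not given in the sources used here. A single table deposited by the authors holds 1 signal value for each gene in each library: CPM scaled by TMM factors, from its layout and values. Whole reads were recovered for 100% of values within 0.01 reads. WNT5A-AS1, FBXL14 and PRKG1-AS1 overlap WNT5A, WNT5B and DKK1 on the opposite strand, and AC004805.1 overlaps AXIN2 on the same strand. SFRP1 overlaps MIR548AO and AC104393.1 on the same strand and RPS29P2 and RNU6-895P on the opposite strand. None of these has a row. Whether their reads were counted apart from those of the members is not known, because the strand option is not given. Positions are from GENCODE release 29.

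Tests used limma 3.58.1 (R 4.3.3, prior following intensity) on log2(CPM + 1). A gene entered if 2 or more libraries reached 1 CPM, which left 13894. The single fit of 12 libraries had 6 residual and 10.1 prior degrees of freedom, and the Benjamini-Hochberg adjustment ran within each of 10 contrasts. Groups came from the titles. The method was tested on simulated counts with changes placed only in the YT group and only in genes averaging 5 CPM or more. That test, whose outcome is not given here, does not cover genes as low as AXIN2 or changes in several groups at once. Other settings tried were a pseudocount of 0.25 or 4, a filter of 5 CPM or none, median-of-ratios scaling, a constant prior, separate fits of the compared groups, omission of each library (a lone library is then assumed to vary like the other groups), and edgeR 4.0.16 or DESeq2 1.42.0 on the recovered reads. A change that did not pass was treated as having no direction.

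The members and gene lists were chosen with earlier results of these data known. Named genes were the members, the targeted genes, up to 3 genes of each role by smallest p (called, and averaging 5 CPM or more), every gene of a role with few genes, and the 3 genes most correlated with each member, of which the text gives a selection. Promoters came from RefSeq (GRCh38.p14), and protein sequences were not used here.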

Additional observations from a re-analysis of the deposited data

Results flagged for a closer look

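The effect of the YAP and TAZ siRNAs differed between backgrounds for 5 of the 8 genes by limma's interaction term, with Benjamini-Hochberg adjusted p-values over all 13894 genes tested. Between cells with and without cGAS siRNAs it differed for DKK1 (0.94 ± 0.28, adjusted p = 0.0343), SFRP1 (0.89 ± 0.11, adjusted p = 3.16e-05), FZD2 (1.29 ± 0.23, adjusted p = 0.000994) and FZD7 (1.47 ± 0.30, adjusted p = 0.00304). In all 4 the log2 change was lower without cGAS siRNAs. For FZD7 it was -0.80 without and 0.67 with them. Between cells with and without STING siRNAs it differed for WNT5A (-0.93 ± 0.13, adjusted p = 0.000269), which changed sign, and FZD2 (1.16 ± 0.23, adjusted p = 0.00392). The YT group enters each of these terms, and its libraries were the least alike of the 6 groups.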

How the results depend on the processing

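No paired analysis was possible because each replicate number occurs in a single group. Over 80 member results, 710 values from other settings kept their side of the threshold 675 times, with 19 calls lost, 16 gained and none reversed, and 384 values with a library left out did so 349 times, with 26 lost and 9 gained. The number of the 8 members called went from 2 to 4 for cGAS against control, and from 3 to 6 for cGAS against STING, in fits of only the groups compared. It went from 5 to 3 with DESeq2 for cGAS_YT against cGAS, and from 2 to 1 with a constant prior for the STING interaction. With a library left out these counts ranged from 1 to 2 for cGAS against control, 3 to 4 for cGAS_YT against cGAS, 2 to 4 for the STING interaction, 3 to 6 (main 5) for STING_YT against YT, 5 to 7 (main 7) for YT against control, 2 to 3 for STING against control and 3 to 5 (main 4; 3 to 6 under other settings) for the cGAS interaction. Over all genes, calls fell from 5773 to 3844 in YT against control in a fit of those groups alone, and from 1095 to 703 for the STING interaction with a constant prior. Left-out libraries gave 550 to 2539 calls for that interaction, 1106 to 3248 (main 1866) for the cGAS interaction, 878 to 1319 (main 2084) for STING against control and 2043 to 2741 (main 3528) for cGAS against control. The same range was 2965 to 3341 (main 4670) for cGAS against STING, 2256 to 3073 (main 3848) for cGAS_YT against cGAS and 3010 to 5277 (main 4731) for STING_YT against YT. In the wider list, calls fell from 17 to 9 for the cGAS interaction and from 33 to 19 for STING_YT against YT in fits of only the groups compared, and from 8 to 4 for the STING interaction with a constant prior. With a library left out the list had 8 to 24, 20 to 37 and 4 to 20 calls in those contrasts, 13 to 19 (main 20) in cGAS against control, 5 to 11 (main 16) in STING against control and 18 to 25 (main 30) in cGAS_YT against cGAS. Beyond smaller groups or fits, the cause of these moves was not tested. AXIN2 has no value with a minimum of 5 CPM.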
